A study of Mus musculus with 12 samples.

Results

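Ppp1r1b, Adcy5, Gnal, Gng7, Pde10a, Pde1b, Rgs9, Arpp21, Prkar1b and Prkar2b are 10 genes of the cyclic AMP pathway through which dopamine acts on the neurons of the striatum. They were taken by symbol from the RNA-seq table, 10 of its 18208 genes. In the CLIP data they were all positions counted under the genes' Ensembl identifiers, 1796 of 147438 distinct positions. CLIP-seq cross-links an RNA-binding protein to RNA in tissue, precipitates the protein with an antibody and sequences the RNA fragments that it holds; here the protein was hnRNP H.

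Dopamine receptors of the D1 class raise cyclic AMP in striatal projection neurons through the olfactory-type G protein (alpha subunit from Gnal, gamma subunit from Gng7) and adenylyl cyclase 5 (Adcy5). Phosphodiesterases break cyclic AMP down, and cyclic AMP otherwise releases the catalytic subunits of protein kinase A (PKA) from its regulatory subunits. PKA then phosphorylates substrates that are abundant in these neurons, among them the phosphatase inhibitor DARPP-32 (Ppp1r1b). Methamphetamine releases dopamine, and hnRNP H is a splicing regulator known to bind runs of guanines.

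All 6 pools were wild-type mice of the C57BL/6J strain, bred from heterozygous Hnrnph1 mutant fathers and C57BL/6J mothers and aged 50 to 100 days. Saline was injected on days 1 and 2, and on day 3 the mice received either saline or methamphetamine at 2 mg/kg. Whole striata were taken 30 min later, and each pool joined 4 mice, 2 females and 2 males, so that values of single animals and sexes are not separable. There were 3 pools per treatment, and a part of each pool was set aside before cross-linking for RNA-seq, which gives 6 CLIP and 6 RNA-seq libraries.

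Whole reads recovered from the RNA-seq values summed to 3935160 to 5091839 per library, and reads in CLIP positions to 423057 (saline pool 2) to 1635338 (saline pool 3). The first principal component placed saline pools 1 and 3 and methamphetamine pool 2 (called set A below) apart from saline pool 2 and methamphetamine pools 1 and 3 (set B) in both assays, with 65.6% of the variance of 7853 genes in RNA-seq and 46.6% of that of 10358 positions in CLIP. These sets were defined from the data, cut across treatment and are given beside the results they touch. The 10 genes took between 0.832% and 1.02% of each library's RNA-seq reads and between 0.601% and 1.21% of its CLIP reads, the highest CLIP share being that of methamphetamine pool 1.

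The sequences under the CLIP reads are shown first, because guanine runs are the element hnRNP H is known to bind. For each position that lay within 1 annotated exon the strand of the transcript was read from GENCODE release M21 (GRCm38). Capitals mark runs of 3 or more G. The first pair are the strongest positions of the 10 genes, the next 3 are positions in a deposited peak list that hold a run, and the last pair are listed positions without one. Only 30 bases of a UTR position are shown, chosen as the window with the most G in runs of 3 or more. Such a window shows the densest runs of a position and not its typical sequence. The full Pde1b 3′ UTR position had 10 of its 100 bases in runs. It was read from a transcript annotated as subject to nonsense-mediated decay. The Rgs9 window is the first 30 bases of a position that held no run over its full 100 bases.
Pde1b, 5′ UTR, chr15:103503136-103503165, plus strand: GGGaGGGGGccctggccGGGGGaggaggag
Prkar1b, coding exon, chr5:139050707-139050806, minus strand: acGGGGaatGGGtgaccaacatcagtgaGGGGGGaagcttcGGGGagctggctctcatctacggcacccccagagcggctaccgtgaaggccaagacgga
Arpp21, 5′ UTR, chr9:112234926-112234955, minus strand: GGGcaGGGagacggagaGGGaGGGacaGGG
Pde1b, 3′ UTR, chr15:103527158-103527187, plus strand: agagacacaggctagaaggaggtGGGaGGG
Ppp1r1b, exon of a processed transcript, chr11:98351505-98351604, plus strand: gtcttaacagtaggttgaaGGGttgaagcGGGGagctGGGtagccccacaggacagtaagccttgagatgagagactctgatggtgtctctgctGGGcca
Pde10a, exon of a retained-intron transcript, chr17:8920573-8920672, plus strand: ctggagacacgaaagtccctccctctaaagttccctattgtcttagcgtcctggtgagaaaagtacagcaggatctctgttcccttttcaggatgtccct
Rgs9, 3′ UTR, chr11:109257126-109257155, minus strand: ggtcctcttcttctaccaaatggtgcccct

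The Pde1b 5′ UTR position of 100 bases was 61.0% G and held 4 separate runs, and the Prkar1b coding position was 37.0% G and also held 4. Among the 19 listed exon positions of the 10 genes whose sequence could be read, 14 (73.7%) held GGG and 6 (31.6%) held GGGG on the transcribed strand. Over all listed positions that could be read, 3198 of 3938 (81.2%) held GGG and 1890 (48.0%) held GGGG. Of the 56 positions present in both lists 6 could be read, and GGG was found in 6 and GGGG in 2. Over all genes the shares of such readable positions were 82.4% and 50.9%. These shares are a description over positions that share genes and neighbouring sequence. The sequences of the intron positions, which hold most of the reads, were not used here.

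Pde1b, a calmodulin-activated phosphodiesterase, had the strongest position of the 10 genes, at the start of its 5′ UTR (chromosome 15, 103503135 to 103503234), which ranked 52 by reads among all positions. It held 1597, 284 and 2689 reads in saline pools 1 to 3 and 664, 1758 and 726 in methamphetamine pools 1 to 3. Those were 78.3%, 70.1% and 76.3% of the gene's reads in saline and 51.7%, 75.1% and 74.4% in methamphetamine. Methamphetamine pool 1 was thus apart from the other 5 pools, with a Wilson 95% interval of 48.9% to 54.4% that covers counting error only. In that pool the introns of Pde1b took 31.1% of its reads, against 7.35% to 18.3% in the others. The position was tested and not called (log2 difference 0.15 ± 0.36 SE, edgeR, adjusted p = 0.9998), and it stood in neither deposited list.

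Prkar1b, which encodes the type I beta regulatory subunit of PKA, was likewise read almost wholly at 1 place. Its coding-exon position (chromosome 5, 139050707 to 139050806) held 661, 200 and 940 reads in saline and 393, 611 and 272 in methamphetamine, from 73.4% of the gene's reads in saline pool 1 to 86.7% in methamphetamine pool 2. Scaled to library size by edgeR (CPM, reads per unit of library total) it varied little, at 747, 717 and 692 CPM in saline and 809, 735 and 689 CPM in methamphetamine. This position ranked 196 among all positions and was also in neither deposited list. Another Prkar1b position, in an intron at 139076007 to 139076106, stood in the saline list but had 108 reads in saline pool 1, 1 each in saline pools 2 and 3, and 0 in the 3 methamphetamine pools.

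**Figure D1:**
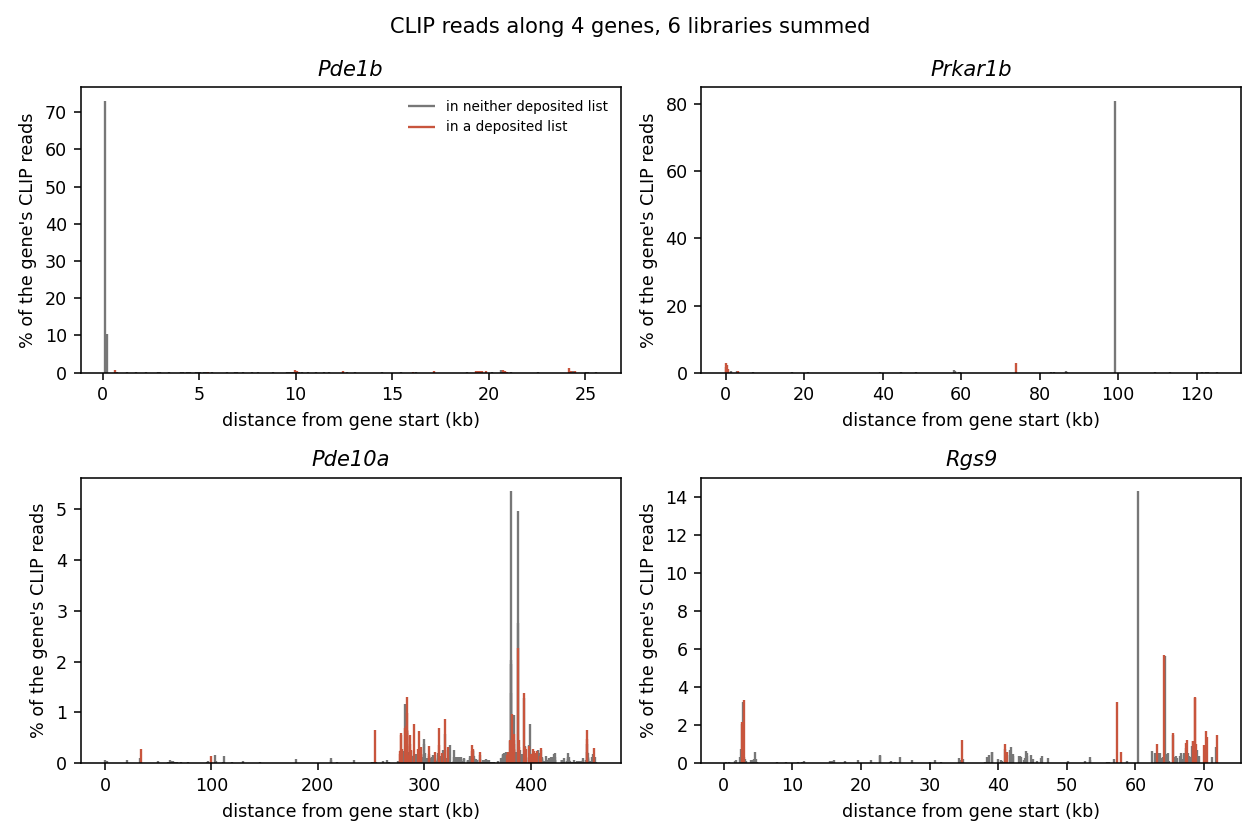
CLIP reads at each counted position of Pde1b, Prkar1b, Pde10a and Rgs9, as percent of the gene's reads over the 6 libraries summed (vertical axis), against distance from the annotated gene start in kb (horizontal axis); red lines are positions in a deposited peak list and grey lines are not. A single grey line dominates Pde1b and Prkar1b, while the reads of Pde10a and Rgs9 are spread over many positions.

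The other genes had no such dominant exon position. Pde10a, the dual-substrate phosphodiesterase enriched in striatal projection neurons, spread 17500 reads over 555 positions, of which introns held 98.2%. Only 1.91% of those reads lay before the midpoint of its annotated span of 461.3 kb. Its most read position (chromosome 17, 8907073 to 8907172, intron) held 372, 8 and 303 reads in saline and 22, 202 and 28 in methamphetamine. All 3 set A pools were above all 3 set B pools there, at 223 to 420 CPM against 28.7 to 70.9 CPM (normalised by edgeR). Of the 10358 positions tested 14.1% had that order and 12.1% the reverse, and the sets were defined from data that include this position. The next intron position, at 8913473 to 8913572, split the same way, with 163 to 458 CPM against 63.8 to 93.7 CPM.

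Rgs9 encodes a regulator that speeds the switching-off of inhibitory G proteins and has a striatal isoform. It had 92.1% of its reads in introns, and its most read position (chromosome 11, 109237656 to 109237755) held 167, 86 and 216 reads in saline and 112, 121 and 92 in methamphetamine. Here set B was the higher, at 230 to 308 CPM against 146 to 189 CPM. The 3′ UTR share of Rgs9 reads was 15.4% in methamphetamine pool 1 and 10.7% in methamphetamine pool 3, and 3.26% to 6.67% in the other 4 pools, so methamphetamine pool 2 lay with the saline pools. The 3′ UTR positions whose sequence could be read lie between 109235156 and 109258155. That is inside the annotated gene, which runs on the minus strand and ends at 109225355. Adcy5 had its most read position in an intron (chromosome 16, 35290478 to 35290577), with 123, 24 and 191 reads in saline and 25, 126 and 32 in methamphetamine. That position took 18% to 19% of Adcy5 reads in the set A pools against 2.49% to 10.5% elsewhere.

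In Arpp21, whose product binds calmodulin once PKA has phosphorylated it, introns held 82.0% of the reads and the 3′ UTR 9.30%, and 84.3% of the reads lay before the midpoint of the gene. Its most read 3′ UTR position with a readable sequence (112181792 to 112181891) lies inside the annotated gene, which ends at 112065091. Ppp1r1b had 94.4% of its reads in introns, its most read position (chromosome 11, 98353605 to 98353704) holding 130 reads in all. Regions here go by position midpoint, and the authors' labels differ at some positions. The Ppp1r1b position at 98355505 to 98355604 (111 reads) counts as intron here, while both deposited lists label it coding sequence. At 39 of the 43 Ppp1r1b positions another gene, 1700003D09Rik, lies on the opposite strand. No source used here says whether counting used strand, so these reads remain uncertain as to gene. Of the Prkar1b positions, 7 overlap Gm15672 on the same strand, 3 of Adcy5 overlap Gm49702, and 1 of Gng7 overlaps Gm3828. For Gnal 3 positions overlap Chmp1b on the same strand and 6 lie opposite AC140336.1 or Mppe1, and 5 of Arpp21 lie opposite 2900079G21Rik. Gnal and Gng7 had 78.8% and 98.3% of their reads in introns, with at most 33 reads at a position of Gnal (chromosome 18, 67117617 to 67117716) and 95 at one of Gng7 (chromosome 10, 80959325 to 80959424). The most read position of Arpp21 was an intron one (chromosome 9, 112184692 to 112184791) with 222 reads. Prkar2b, the type II beta regulatory subunit of PKA, had 218 reads in all, and 23 at its most read position (chromosome 12, 31970577 to 31970676, intron).

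**Figure D2:**
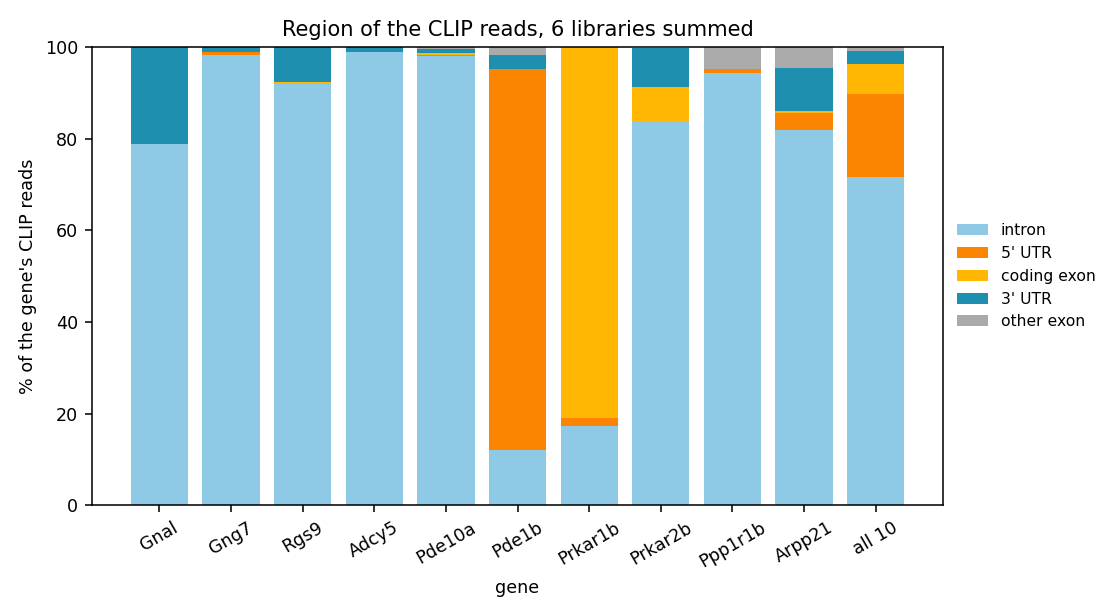
Region of the CLIP reads of each gene, as percent of its reads with the 6 libraries summed (bars from 0 to 100%; regions from GENCODE M21 by position midpoint). Introns hold most reads in 8 of the 10 genes, with the 5′ UTR in Pde1b (83.3%) and a coding exon in Prkar1b (81.0%) as the exceptions.

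The authors deposited 1 peak list per treatment, so a list has no replicates. The methamphetamine list held 144 positions of these genes and the saline list 88, of which 56 were in both, that is 38.9% of the first and 63.6% of the second. For all genes 4729 positions were shared, which is 47.8% of the 9903 listed for methamphetamine and 49.6% of the 9537 listed for saline. Pde10a accounted for 71 positions of the first list and 39 of the second, with 27 in both. Pde1b had 17 and 3 (2 in both), Rgs9 18 and 8 (6 in both), and Gng7 7 and 1 (0 in both). Numbers were closer for Adcy5 (13 and 16, 7 in both), Ppp1r1b (9 and 10, 8 in both), Prkar1b (4 and 7, 3 in both), Arpp21 (4 and 3, 2 in both) and Gnal (1 and 1, the same position). Prkar2b was in neither list. Counts were lacking for 17 of the 176 listed positions.

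Among these genes the highest signal value in the authors' deposited methamphetamine list was 2.20 for a Rgs9 intron (109229356 to 109229455), followed by 2.18 for a Pde1b position at 103503635 to 103503734. The most read positions in both lists were in Rgs9 (109233856 to 109233955, 317 reads), Arpp21 (112184792 to 112184891, 191 reads), Pde10a (8809073 to 8809172, 174 reads), Pde1b (103527135 to 103527234, 122 reads), Ppp1r1b (98355505 to 98355604, 111 reads) and Adcy5 (35276078 to 35276177, 105 reads). Being listed was not the same as having many reads. Of 60 positions of these genes with at least 100 reads, 34 (56.7%) were listed, and over all genes 47.4% of 6789 such positions.

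RNA levels were compared next, to ask whether these transcripts differed 30 min after methamphetamine. No gene of the 10 was called by limma over all genes (adjusted p = 0.9998 for each), and 0 of the 18208 genes were (0%), 276 of all genes and 0 of the 10 having an unadjusted p under 0.05. Methamphetamine minus saline was negative for 9 of the 10, with a median of -0.19 on the log2 scale against 0.00 for all genes. No list test was made, and the count is a description.

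Of the G protein genes, Gnal had 8.97, 9.20 and 8.71 log2 CPM in saline pools 1 to 3 and 9.0, 8.72 and 9.14 in methamphetamine pools 1 to 3. The groups overlapped (difference -0.01 ± 0.20 SE), and set A was below set B. Gng7 had 9.70, 9.66 and 9.62 log2 CPM in saline and 9.54, 9.47 and 9.42 in methamphetamine, a difference of -0.18 ± 0.17 with every methamphetamine pool under every saline pool. Rgs9 had 8.49, 8.07 and 8.64 log2 CPM in saline and 8.09, 8.46 and 8.19 in methamphetamine (-0.16 ± 0.20), overlapping by treatment and higher in set A.

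Adcy5, the main adenylyl cyclase of the striatum, had 11.46, 10.95 and 11.67 log2 CPM in saline and 10.80, 11.54 and 10.96 in methamphetamine. The difference was -0.26 ± 0.31, and the 3 set A pools held the highest values. Pde10a had 10.46, 10.38 and 10.51 log2 CPM in saline and 10.23, 10.33 and 10.10 in methamphetamine (-0.23 ± 0.20), without overlap. Pde1b had 10.34, 10.26 and 10.32 log2 CPM against 10.15, 10.21 and 9.99 (-0.19 ± 0.19), also without overlap.

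Of the PKA subunits, Prkar1b had 8.07, 8.62 and 7.5 log2 CPM in saline and 8.22, 7.76 and 8.61 in methamphetamine. It was the only gene of the 10 with a positive difference (0.14 ± 0.30), and its levels followed the sets, lower in set A by 0.71. Prkar2b had 6.55, 6.54 and 6.46 log2 CPM in saline and 6.18, 6.30 and 6.25 in methamphetamine, a difference of -0.28 ± 0.14 without overlap (limma, adjusted p = 0.9998). Among the PKA substrates, Ppp1r1b had 11.40, 10.88 and 11.70 log2 CPM in saline and 10.69, 11.41 and 10.79 in methamphetamine (-0.36 ± 0.31). Arpp21 had 9.37, 8.99 and 9.45 log2 CPM in saline and 8.87, 9.29 and 9.09 in methamphetamine (-0.18 ± 0.20). Both substrates overlapped by treatment and were higher in every set A pool. With library set as a covariate the differences were -0.05 for Adcy5, -0.02 for Rgs9, -0.06 for Arpp21 and -0.14 for Ppp1r1b, and with each pool left out in turn that of Adcy5 ran from -0.48 to -0.10.

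**Figure D3:**
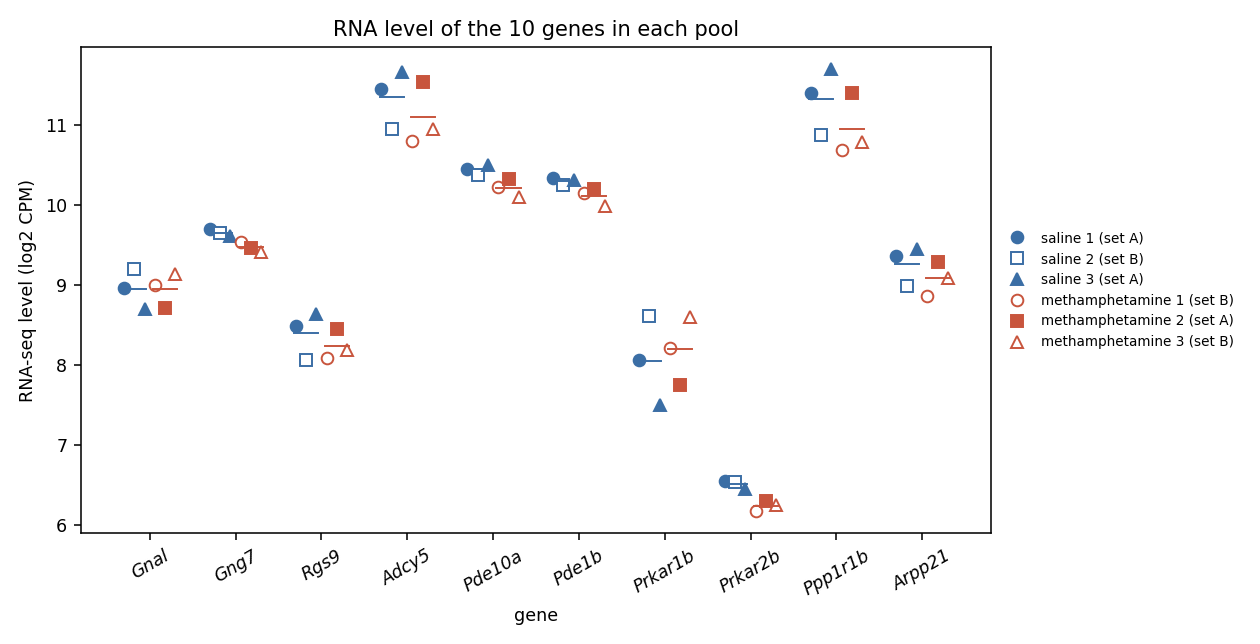
RNA-seq level in log2 CPM (vertical axis) of each gene in the 6 pools, blue for saline and red for methamphetamine, filled symbols for set A and open symbols for set B, with a line at the mean of each treatment. Gng7, Pde10a, Pde1b and Prkar2b show every red symbol under every blue one, and Rgs9, Adcy5, Ppp1r1b and Arpp21 show every filled symbol above every open one.

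Thus 4 of the 10 genes, Gng7, Pde10a, Pde1b and Prkar2b, had every methamphetamine pool below every saline pool. The same held for 3.58% of all genes, and for 1.53% of the 7853 genes with a mean log2 CPM above 4, a level each of the 10 exceeds. None had the reverse order. Without saline pool 2 the count was 6, with Rgs9 and Arpp21 added, and the share of the expressed genes was 10.4%. The count also depended on how libraries were scaled. The deposited values rest on effective library sizes of 0.86 to 0.904 times the recovered read total in set A and 1.008 to 1.021 times in set B. When the same reads were scaled to plain totals, chosen after seeing the data, only Pde10a kept the separation, beside 0.802% of the expressed genes. That scaling moved the median methamphetamine-minus-saline value of the expressed genes from 0.025 to 0.108, and that of the 10 from -0.188 to -0.105.

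Differences between the library sets were larger than those between treatments for 6 of the 10 genes. The sets were defined from RNA-seq values that include these genes, which favours large set differences. For how many expressed genes the set difference was the larger was not counted. Rgs9, Adcy5, Ppp1r1b and Arpp21 were higher in every set A pool, by 0.42, 0.65, 0.71 and 0.39 on the log2 scale, as were 19.9% of the expressed genes. Gnal and Prkar1b were lower in every set A pool (-0.31 and -0.71), as were 26.4%. For the first 4 genes and for Prkar1b this order held with plain totals and with libraries shifted to 1 median; for Gnal it held with plain totals but not with the shifted medians. For Gng7, Pde1b and Prkar2b the sign turned with plain totals (0.05 to -0.14, 0.16 to -0.04 and 0.12 to -0.08). Within set A the single methamphetamine pool was below the mean of the 2 saline pools for 10 of the 10 genes (median -0.12), and within set B the mean of the 2 methamphetamine pools was below the single saline pool for 9 (median -0.16), Rgs9 being at 0.07. For the expressed genes those medians were -0.02 and 0.02.

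Summed levels of some cell type marker lists differed between the sets as well, and their part in these results was not tested. All 10 of 10 striatal projection neuron markers were measured, with a summed level of 2930 to 3190 CPM for set A and 2350 to 2640 for set B, or 2640 to 3190 in saline and 2350 to 2930 in methamphetamine. Their most abundant gene, Rasd2, had 9.80, 9.47 and 10.04 log2 CPM in saline and 9.38, 9.77 and 9.03 in methamphetamine. The 10 cortical excitatory markers (Slc17a7 the most abundant) summed to 201 to 465 CPM (set A) and 489 to 901 (set B), and the 10 astrocyte markers (Slc1a2) to 2550 to 2820 and 3700 to 4080. Microglia (10 genes, Csf1r) came to 352 to 377 CPM (set A) and 407 to 443 (set B), and endothelium (8 genes, Flt1) to 68.9 to 92.0 and 106 to 159. Oligodendrocyte markers (10 genes, Mbp) overlapped between the sets, at 5180 to 12600 and 7110 to 12700 CPM, as did the 8 interneuron (Sst) and 5 thalamic (Synpo2) markers, at 504 to 597 against 565 to 790 and 49.6 to 74.7 against 54.5 to 158. Choroid plexus markers (10 genes) stood at 5330 CPM in methamphetamine pool 2 and 145 to 285 in the other 5, with Ttr at 12.17 log2 CPM there against 4.46 to 7.30. Without that pool 5 of the 10 genes, in place of 4, had every methamphetamine pool below every saline pool, as did 7.11% of the expressed genes. Single markers did not all follow their list: every set A pool was above every set B pool for 4 of 10 projection neuron markers and below for 1. For cortical markers 0 of 10 were above and 4 below, for astrocytes 1 and 6 of 10, for microglia 0 and 3 of 10 with Csf1r overlapping, and for endothelium 0 and 6 of 8. The counts were 0 and 5 of 10 for oligodendrocytes, 0 and 3 of 8 for interneurons, 0 and 2 of 5 for thalamic neurons, and 3 and 0 of 10 for choroid plexus. Over the expressed genes 19.9% were above and 26.4% below, so such an order is common among genes at large. No gene of any of these lists was at 0 in all pools. In pooled tissue, fewer cells of a type and less RNA per cell cannot be told apart.

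On a scale of log2 CPM per kb of exon the levels ran from Ppp1r1b (9.60 ± 0.41 SD, n = 6 pools) and Adcy5 (8.39 ± 0.37) through Pde1b (7.78 ± 0.13), Gng7 (7.65 ± 0.11), Pde10a (6.65 ± 0.15), Prkar1b (6.20 ± 0.45), Rgs9 (5.65 ± 0.24), Gnal (5.48 ± 0.21) and Arpp21 (5.05 ± 0.23) to Prkar2b (4.51 ± 0.16). Ranges over the pools were apart for Ppp1r1b over Adcy5, Adcy5 over Pde1b, Gng7 over Pde10a and Arpp21 over Prkar2b. The other neighbours overlapped, although Pde1b was above Gng7 in 6 of 6 pools, while Rgs9 was above Gnal in 3 of 6. Exon length is the union over transcripts, 17.43 kb for Arpp21 and 2.93 kb for Ppp1r1b, which lowers the value of a gene with long unused exons.

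CLIP reads summed per gene ask whether hnRNP H held more or less of each transcript. All 10 genes passed the filter on low counts, and 0 of the 10 and 0 of the 8185 genes tested (0%) were called by edgeR (adjusted p of the 10 from 0.883 to 0.968), with 0 of the 10 and 429 of all genes under an unadjusted p of 0.05. DESeq2 called 0 of the 10 too. The difference was positive for 9 of the 10 genes, with a median of 0.35 on the log2 scale against 0.04 for all genes. It rested on 1 library: without methamphetamine pool 1 it was positive for 5 of the 10.

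Gnal had 94, 75 and 171 CLIP reads in saline and 406, 110 and 54 in methamphetamine, or 6.60, 7.52 and 6.68 log2 CPM against 8.67, 6.84 and 6.50. The fitted difference was 0.80 ± 0.65, and -0.33 without methamphetamine pool 1. Gng7 had 495, 168 and 846 reads in saline and 981, 525 and 329 in methamphetamine, at 8.99, 8.68 and 8.99 log2 CPM against 9.95, 9.09 and 9.09. It was the 1 gene of the 10 with every methamphetamine pool above every saline pool (0.65 ± 0.38), an order found in 4.42% of the genes tested, and without methamphetamine pool 1 the difference was 0.21. Its RNA level had the opposite order. Rgs9 had 10.10, 9.51 and 9.86 CLIP log2 CPM in saline and 10.35, 9.79 and 9.66 in methamphetamine (0.22 ± 0.36), overlapping.

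Adcy5 had 649, 229 and 1064 reads in saline and 1006, 687 and 332 in methamphetamine, at 9.39, 9.12 and 9.32 log2 CPM against 9.98, 9.47 and 9.11 (0.38 ± 0.36). Methamphetamine pool 1 was the highest and pool 3 the lowest of the 6. Pde10a had the most reads of the 10 genes, 3637, 866 and 4424 in saline and 4233, 3028 and 1312 in methamphetamine, at 11.87, 11.04 and 11.37 log2 CPM against 12.05, 11.61 and 11.09 (0.27 ± 0.39). Pde1b had 2040, 405 and 3524 reads in saline and 1285, 2341 and 976 in methamphetamine, at 11.04, 9.94 and 11.05 log2 CPM against 10.33, 11.24 and 10.66 (0.10 ± 0.38). Its 3 set A pools were above its 3 set B pools. With reads summed only over positions in a deposited list, which leaves out the dominant 5′ UTR position, the Pde1b difference was 1.25 ± 0.47 (edgeR, adjusted p = 0.774). The lists were made per treatment from these same libraries. Of the listed Pde1b positions 15 were in the methamphetamine list alone and 1 in the saline list alone. Listing thus selects by treatment, and the value is no separate support for a difference.

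Prkar1b had 901, 244 and 1128 reads in saline and 495, 705 and 325 in methamphetamine, at 9.86, 9.21 and 9.40 log2 CPM against 8.96, 9.51 and 9.07. It was the 1 gene with a negative difference (-0.25 ± 0.32), and also higher in every set A pool. Summed over listed positions alone, without the dominant coding position, it was -1.36 ± 0.50 (edgeR, adjusted p = 0.774). Those positions include the intron one read almost wholly in saline pool 1. Of the listed Prkar1b positions 1 was in the methamphetamine list alone and 4 in the saline list alone, so the same selection by treatment applies. Of the 8 genes that could be tested over listed positions, Pde1b and Prkar1b had an unadjusted p under 0.05. The same held for 198 of 3687 genes in all, and 0 were called. Prkar2b had 19, 10 and 45 reads in saline and 101, 25 and 18 in methamphetamine, the fewest of the 10 genes, with a difference of 1.29 ± 0.63 that was 0.25 without methamphetamine pool 1. Among the substrates, Ppp1r1b had 177, 77 and 325 reads in saline and 268, 218 and 100 in methamphetamine, at 7.51, 7.55 and 7.61 log2 CPM against 8.08, 7.82 and 7.38 (0.31 ± 0.35). Arpp21 had 452, 168 and 703 reads in saline and 910, 455 and 226 in methamphetamine, at 8.86, 8.68 and 8.72 log2 CPM against 9.84, 8.88 and 8.55 (0.55 ± 0.42). In both, methamphetamine pool 1 was the highest and pool 3 the lowest.

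**Figure D4:**
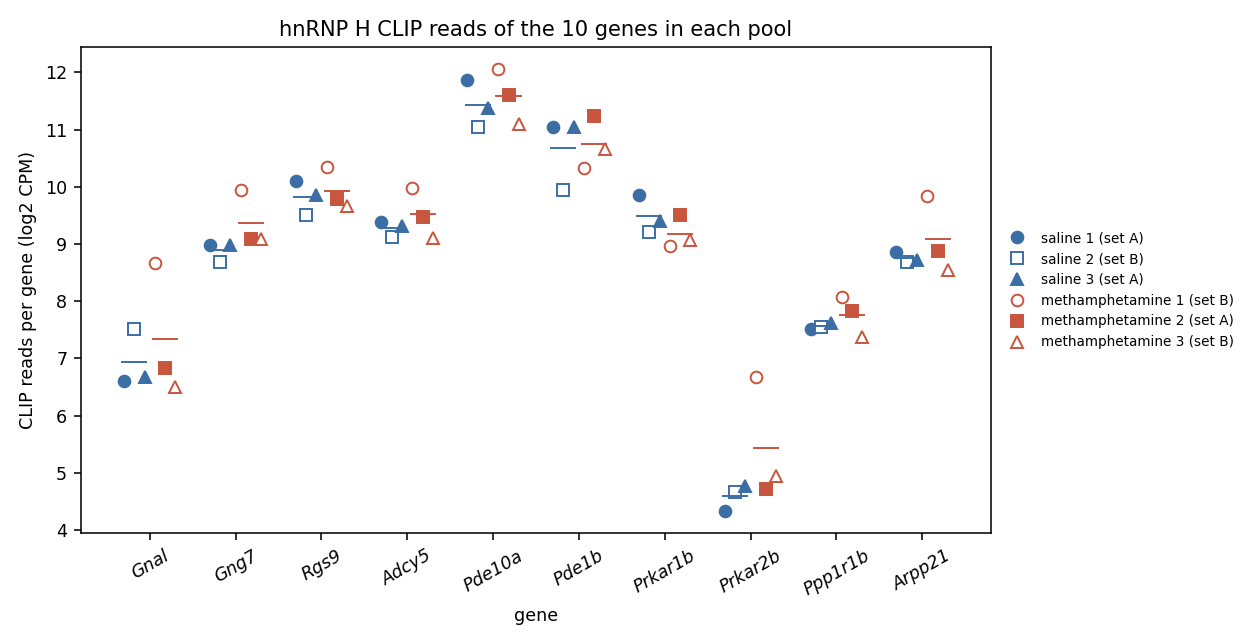
CLIP reads per gene in log2 CPM (vertical axis) in the 6 pools, with the same colours and symbols as in the plot of RNA levels and a line at the mean of each treatment. The open red circle, methamphetamine pool 1, is the highest symbol in 8 of the 10 genes.

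Methamphetamine pool 1 was the highest library in 8 of the 10 genes, all but Pde1b and Prkar1b, a feature chosen after its values were seen. Over all genes tested it was the highest in 23.5%. It also had reads at 83.5% of the positions of the 10 genes and at 69.1% of all positions, where saline pool 1 and methamphetamine pool 2, which had more reads in total, were at 62.9% and 65.7% and, over all positions, at 56.3% and 56.0%. Saline pool 3, the deepest library, had reads at 72.3% and 64.5%. Of the reads of the 10 genes 82.3% lay in introns in methamphetamine pool 1, and 67.0% to 74.9% in the other 5 pools. Without methamphetamine pool 1 the CLIP differences of the genes not yet given that way were 0.03 for Adcy5, 0.06 for Ppp1r1b, -0.02 for Arpp21, -0.08 for Pde10a, -0.10 for Rgs9, 0.24 for Pde1b and -0.20 for Prkar1b.

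Per kb of annotated gene, intron included, CLIP levels ran from Pde1b (5.95 ± 0.50 log2 CPM per kb, SD, n = 6 pools) through Ppp1r1b (4.43 ± 0.25), Rgs9 (3.69 ± 0.30), Gng7 (3.08 ± 0.43), Pde10a (2.66 ± 0.41), Prkar1b (2.28 ± 0.33), Adcy5 (2.16 ± 0.32), Arpp21 (1.5 ± 0.46) and Gnal (0.02 ± 0.84) to Prkar2b (-1.67 ± 0.84). Of the neighbours in this order, only Pde1b and Ppp1r1b had ranges apart. The order differs from that of RNA levels, Adcy5 being second there, but the 2 scales divide by unlike lengths. For Adcy5 these were 150.9 kb of gene span in CLIP and 7.18 kb of exon in RNA-seq.

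CLIP was then set against RNA of the same pool, as the difference of the 2 log2 CPM values. Ppp1r1b was low on this scale, at -3.94, -3.20 and -4.09 in saline and -2.40, -3.62 and -3.31 in methamphetamine, so that its mean ranked at percentile 2.8 of 7030 genes. Adcy5, Gnal and Prkar2b ranked at percentiles 16.5, 16.7 and 23.5, and Gng7, Arpp21, Pde1b, Pde10a, Prkar1b and Rgs9 between 40.2 and 70.9. CLIP reads here come mostly from introns and RNA-seq reads were counted per gene, and the share of unspliced RNA was not measured. Neither value was divided by length, so these percentiles are not levels per kb. Ppp1r1b has the shortest annotated span of these genes (9.4 kb). Per kb of span its CLIP level (4.43 log2 CPM per kb) was below only that of Pde1b (5.95) among them.

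Methamphetamine minus saline on this scale was positive for 9 of the 10 genes (median 0.53, against 0.05 for all genes). No gene was called by limma (0 of 10 and 0% of 7030, adjusted p = 0.9977), with 0 of the 10 and 219 of all genes under an unadjusted p of 0.05. Gng7 had -0.76, -0.86 and -0.63 in saline and 0.62, -0.41 and -0.23 in methamphetamine (0.74 ± 0.48). Prkar2b had -2.28, -1.74 and -1.69 in saline and 0.71, -1.62 and -1.21 in methamphetamine (1.2 ± 0.66). These were the genes without overlap, an order that 4.15% of genes had. Without methamphetamine pool 1 the difference was positive for 7 of the 10 genes, at 0.43 for Gng7, 0.49 for Prkar2b and 0.05 for Arpp21. Of the other 8, the differences ran from -0.37 ± 0.54 (Prkar1b) to 0.63 ± 0.59 (Ppp1r1b), all with overlapping groups. The comparison uses the RNA and CLIP values already given and is no independent support for either.

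**Figure D5:**
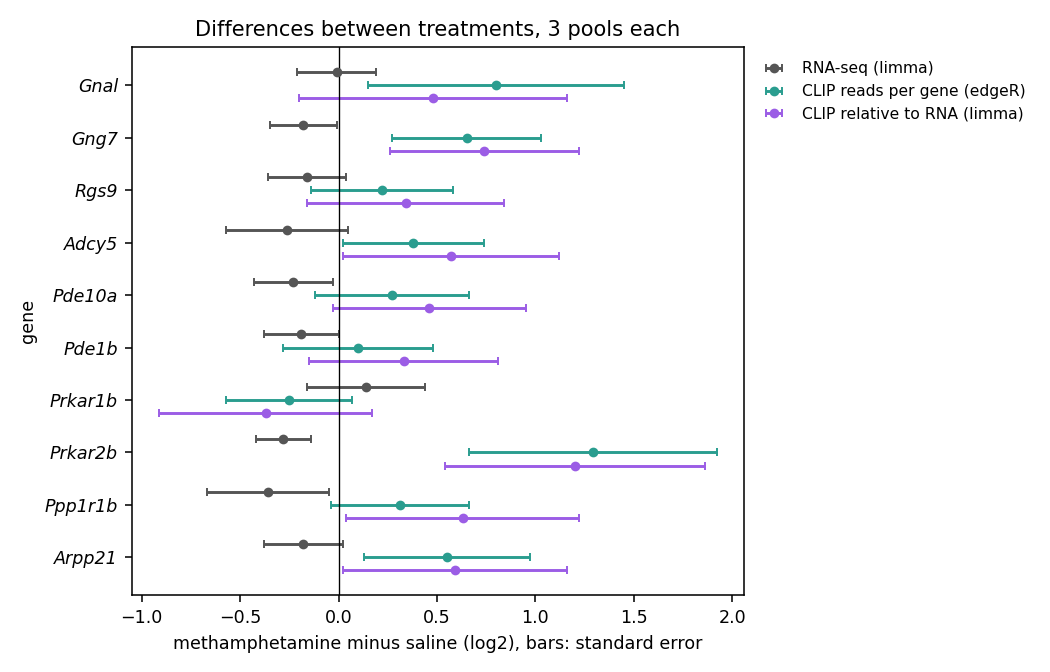
Methamphetamine minus saline on the log2 scale (horizontal axis) for each gene, with bars of 1 standard error, for RNA-seq, CLIP reads per gene and CLIP relative to RNA. RNA points lie at or left of 0 for all genes but Prkar1b, and CLIP points lie right of 0 for all but Prkar1b; none passed the adjusted threshold.

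At single positions, 109 of the 1796 positions passed the filter on low counts, 52 of them in Pde10a, 16 in Rgs9, 13 in Adcy5 and 0 in Gnal and Prkar2b. None was called (0 of 109 and 0% of 10358, edgeR), and the unadjusted p was under 0.05 for 5 of the 109 (3 positive and 2 negative differences), beside 3.35% of all positions tested. DESeq2 also called 0 of the 109. The smallest p belonged to a Prkar1b intron position near the gene start (139149707 to 139149806), with 27, 10 and 34 reads in saline and 3, 8 and 4 in methamphetamine. That is 30.5, 35.8 and 25 CPM against 6.17, 9.63 and 10.1 CPM, without overlap (-1.77 ± 0.48, edgeR, unadjusted p = 0.0067, adjusted p = 0.9998). It lies under Gm15672 on the same strand, so the gene of origin is uncertain.

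The next 2 were intron positions of Pde10a, at 8811873 to 8811972 and 8808373 to 8808472. The first held 4, 3 and 13 reads in saline and 44, 14 and 20 in methamphetamine, or 4.52, 10.7 and 9.57 CPM against 90.5, 16.9 and 50.7 (2.68 ± 0.73, edgeR, unadjusted p = 0.00674). The second held 9, 4 and 23 reads in saline and 25, 19 and 21 in methamphetamine, or 10.2, 14.3 and 16.9 CPM against 51.4, 22.9 and 53.2 (1.59 ± 0.52, edgeR, unadjusted p = 0.016). Neither overlapped between treatments, both had an adjusted p of 0.9998, and both were in the methamphetamine list alone. The strongest Pde10a positions went the other way, at -0.90 ± 0.93 and -1.07 ± 0.67, with the split by set described above.

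Other genes of the pathway were listed by role: receptors, G proteins and their regulators, cyclases, phosphodiesterases, PKA and its anchors, the phosphatases and kinases that act on DARPP-32, and further effectors. Of 65 such genes 63 had RNA values, 0 were called and 0 had an unadjusted limma p under 0.05, with 28 positive and 35 negative differences (median -0.02, against -0.19 for the 10). The 6 receptor genes measured were all negative (median -0.25), for example Drd2, the inhibitory dopamine receptor, at 8.47, 8.16 and 8.68 log2 CPM in saline and 8.05, 8.35 and 8.06 in methamphetamine. The 18 G protein genes and regulators had 13 positive and 5 negative values, and the 10 phosphatase and kinase genes 2 positive and 8 negative.

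The smallest unadjusted p in RNA-seq belonged to Adcy1, a calmodulin-stimulated cyclase (0.42 ± 0.21), Gpr6, an orphan receptor (-0.33 ± 0.17), and Rgs14, a regulator of G protein signalling (-0.40 ± 0.21), each with a limma adjusted p of 0.9998. Adcy1 was lower in every set A pool (set A minus set B -0.54) and Rgs14 higher in every set A pool (0.58), while the sets overlapped for Gpr6 (0.27). In CLIP 56 of the 65 were tested, 0 were called and 4 had an unadjusted p under 0.05, with 44 positive and 12 negative differences (median 0.33). There the smallest belonged to Rgs4 (1.16 ± 0.48), Ppp1cc, a catalytic subunit of protein phosphatase 1 (1.49 ± 0.61), and Adcy9 (1.06 ± 0.46), each with an edgeR adjusted p of 0.883. Methamphetamine pool 1 was the highest of the 6 libraries in all 3, at 6.36, 7.09 and 7.07 CLIP log2 CPM.

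The mean profile of the 10 genes, each centred on its own mean, was 0.14, 0.01 and 0.11 in saline pools 1 to 3 and -0.17, 0.00 and -0.09 in methamphetamine pools 1 to 3. Over the 6 libraries the genes most like it were Tomm70a (Pearson r = 0.992), Snx25 (0.983), Kcna4 (0.981), Rap2b (0.98) and Kcng3 (0.979), a description over 6 libraries that share depth and scaling. For single genes the closest were Nop56 for Gnal, Hlf for Gng7, Polg for Rgs9, Axin2 for Adcy5, Dedd for Pde10a, Arhgap10 for Pde1b, Cyfip1 for Prkar1b, Gabbr1 for Prkar2b, Ccdc106 for Ppp1r1b and Bcr for Arpp21. Their r values ran from 0.963 (Gabbr1) to 1.00 (Cyfip1).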

How the data were processed

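CLIP-seq and RNA-seq of 6 striatal pools were compared, 3 per treatment. The authors deposited whole-number read counts per CLIP position. Each of 147438 distinct positions of 172271 lines was used once; per the labels, the RNA-seq values deposited are log2 CPM made with voom. These invert to whole reads with an offset of 0.5 reads in 100% of values (tolerance 0.01 reads), and edgeR on those reads called 0 genes. The peak lists deposited by the authors give a signal value, treated as a score, and q-values, whose test is not given in the sources used here. The submitters' processing notes name mm10, Trimmomatic, UMI-tools, STAR, bedtools, Subread, featureCounts, limma and edgeR, without roles.

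Here, RNA-seq and CLIP minus RNA (CLIP and RNA libraries of one number are the same pool, per the labels) were fitted with limma 3.58.1 (trend). CLIP counts were fitted with edgeR 4.0.16 (TMM, filterByExpr, quasi-likelihood; SE is the log2 difference over the square root of F), with DESeq2 1.42.0 as an alternative, in R 4.3.3. P-values were adjusted by Benjamini-Hochberg over all features at 0.05. Regions and exon sequences came from GENCODE M21 at the position midpoint, an overlap going to the 3′ UTR before the 5′ UTR, then to coding exons, any remaining exon and last to introns. Coordinates are 1-based. Fits were tested on simulated data with less spread between libraries and larger changes than most given here. That test does not bear on the absence of calls. Pools are separate groups of mice, per the labels; 3 against 3 cannot go below an exact two-sided p of 0.1. Wilson 95% intervals cover counting error only.

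The genes, gene lists and library sets were chosen with earlier results of these data known. The text names all 10 genes in each comparison, their most read positions, positions in both lists (the most read of 6 genes, the rest as counts), the 3 positions and the 3 other pathway genes with the smallest p, the genes most similar by Pearson r among those with a mean log2 CPM above 4, and the most abundant gene of each marker list. Other names were chosen after their values were seen.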

Additional observations from a re-analysis of the deposited data

How the results depend on the processing

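No gene of the 10 was called in RNA-seq, CLIP reads per gene or CLIP relative to RNA under any alternative run, each count being 0 to 0 with each replicate left out. Without a count filter 1 position was called, among 414 of 140449 over all genes: the Prkar1b intron position at 139076007, whose reads come from saline pool 1. The 4 genes with every methamphetamine pool below every saline pool became 1 with plain read totals, and 4 to 6 with a replicate left out (6 without saline replicate 2), while that order held for 2.75% to 10.4% of the expressed genes. GGG was held by 100.0% of the readable positions in both lists, which were only 6 of 56, against 73.7% of the 19 readable listed positions. Over all genes those shares were 82.4% and 81.2%. Some differences changed sign. In RNA-seq Gnal was 0.074 with plain read totals, and -0.14 to 0.11 with replicates left out (positive without saline replicate 2 or methamphetamine replicate 2); Prkar1b was -0.11 with library set as a covariate, and -0.14 to 0.41 with replicates left out (negative without saline or methamphetamine replicate 3). In CLIP per gene the ranges with replicates left out were -0.33 to 1.16 for Gnal, -0.10 to 0.35 for Rgs9, -0.08 to 0.48 for Pde10a and -0.023 to 0.79 for Arpp21, negative without methamphetamine replicate 1. Pde1b ranged from -0.18 to 0.26, negative without saline or methamphetamine replicate 2. Relative to RNA, Gnal (-0.23 to 0.99) and Rgs9 (-0.008 to 0.559) were negative without methamphetamine replicate 1. The cause was not tested. Of the values with a replicate left out, 56 of 60 in RNA-seq, 54 of 60 in CLIP per gene and 58 of 60 relative to RNA kept their sign, and of the others 78 of 80, 68 of 68 and 40 of 40.

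Replicate numbers did not pair the treatments: deviations of same-numbered pools correlated at -0.346, -0.821 and -0.489 in RNA-seq and -0.368, -0.549 and -0.082 in CLIP. With the replicate block 0 of the 10 genes and 0 of the 109 positions were called, and the count of calls was not moved; no sample correlated best with its own number. CLIP depth limits Gnal and Prkar2b, with 910 and 218 reads in all.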
